A study of Homo sapiens with 4 samples.

Results

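The OAS family consists of 4 genes, OAS1, OAS2, OAS3 and OASL, which are represented on the array by 7 probe sets that name one of them alone, out of 19064 probe sets that name a single gene and 11963 genes named in all. The genes were chosen by symbol, with their earlier values in this contrast known (the differences of OAS1 and OASL between MED1 and empty vector in particular), so the values of the family in that contrast are given as a description and without a test. The cells were LNCaP, a human prostate cancer line that responds to androgen, kept in RPMI-1640 with 10% FBS. One group received a MED1 expression vector and the other the empty vector, both transiently and with Lipofectamine, and each group had 2 arrays. The design gives 24 hours of transfection, and both groups share the line, the medium and the exposure to lipid and plasmid. Transient transfection usually reaches a part of the cells, and the arrays average over the cells that took up a vector and those that did not. In such bulk RNA, fewer cells that express a gene and less of its RNA per cell cannot be told apart.

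The 2',5'-oligoadenylate synthetases are nucleotidyltransferases that bind double-stranded RNA, a product of viral replication, and then join ATP into short chains with unusual linkages. These chains act as a second messenger that leads to the cutting of single-stranded RNA, which slows protein synthesis in the cell. OAS1, OAS2 and OAS3 carry the synthetase unit as a single copy or in tandem repeats. OASL lacks the synthetase activity, ends in ubiquitin-like repeats and acts through the RNA sensor RIG-I instead. In most epithelial cells all of them are made at low levels until interferon acts.

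In cells given MED1, OAS1 and one probe set of OASL read higher than with the empty vector on both arrays, OAS3 read 1.33 times the empty vector level, and OAS2 lay under the filter level on every array with its groups overlapping. The size for OAS1 and OASL depended on the number added before taking logs (the pseudocount), with log2 differences of 1.60 to 3.40 for the brighter OAS1 probe set and 1.48 to 3.23 for the first of OASL. The controls of both probe sets read under the filter level. On 4 of the 7 probe sets the MED1 arrays both exceeded both controls, and on 0 both were lower. Over all 22215 probe sets those shares were 15.7% and 21.8%. Signals are MAS5 values, a linear brightness per probe set. A probe set was tested where its mean over the 4 arrays reached 32.2, the 40th percentile. By that filter 5 of the 7 were tested, and 3 of those, the OAS1 pair and 1 of OASL, passed it only through the MED1 arrays, since their empty vector means lay under it. Those same 3 were past the threshold that 16 probe sets, or 0.120% of the 13329 tested, reached in this direction (limma, Benjamini-Hochberg adjusted p of 0.05). As that contrast helped to choose the genes, nothing is read from the count.

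**Figure D1:**
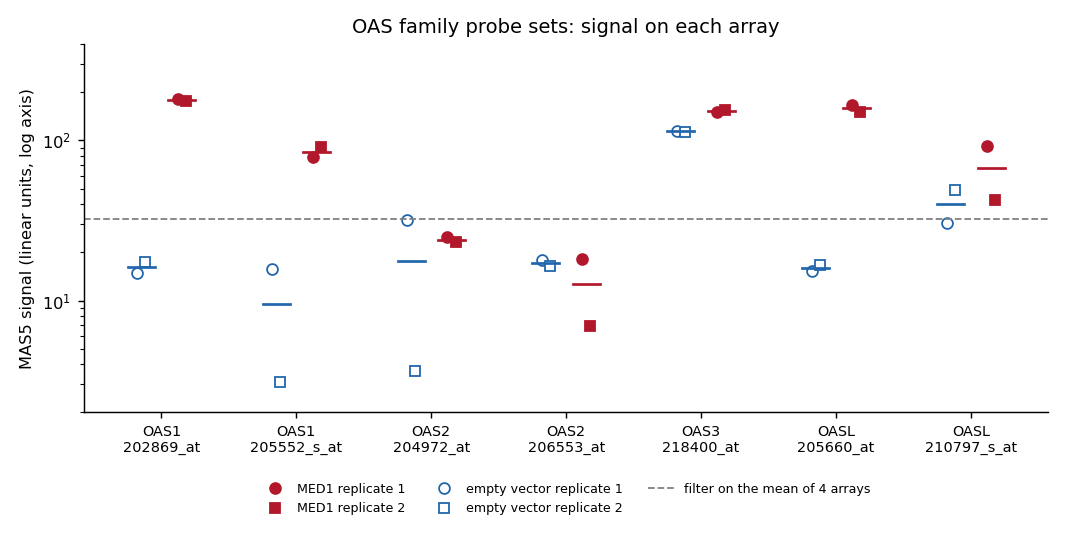
MAS5 signal (log axis) of each of the 7 OAS family probe sets on each of the 4 arrays; filled red symbols are MED1, open blue symbols empty vector, circles replicate 1, squares replicate 2, short bars group means, and the dashed line the filter level of 32.2. Both OAS1 probe sets, OAS3 and the first OASL probe set show separated groups, while both OAS2 probe sets and the second OASL probe set do not.

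OAS1 is the smallest active synthetase, with 1 catalytic unit. Its brighter probe set, 202869_at, read 182 and 177 with MED1 and 14.95 and 17.4 with the empty vector. The groups lay far apart, and within each group the arrays lay close together. The means were 179 ± 3.80 and 16.2 ± 1.70 (SD, n = 2), a ratio of 11.1 whose denominator lay under the filter level. On the scale of log2(signal + 16) the difference was 2.60 ± 0.21 (SE).

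The other OAS1 probe set, 205552_s_at, read 78.2 and 91.3 with MED1 and 15.8 and 3.11 with the empty vector. Both MED1 arrays were again above both controls, but the empty vector arrays were spread widely at these low signals. The means were 84.8 ± 9.25 and 9.45 ± 8.96 (SD, n = 2), and the log2 difference was 2.03 ± 0.32 (SE). The annotation names OAS1 alone for both probe sets. Their log2 differences were 0.58 apart, but 0.15 apart without empty vector replicate 1, 1.00 apart without empty vector replicate 2 and 0.03 apart with a pseudocount of 1.

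OAS3 is the longest synthetase and binds long double-stranded RNA with high affinity. The probe set that names it alone, 218400_at, read 150.1 and 155 with MED1 and 115 and 113 with the empty vector. The groups did not overlap, and the step between them was larger than the spread within either. The means were 152 ± 3.20 and 114 ± 1.31 (SD, n = 2), a ratio of 1.33 and a log2 difference of 0.37 ± 0.16 (SE). This was the one probe set of the family with separated groups whose empty vector mean lay above the filter level.

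OAS2 carries the synthetase unit as a pair and is modified with a fatty acid that holds it at membranes. Its probe set 204972_at read 24.8 and 23.1 with MED1 and 31.7 and 3.61 with the empty vector. The empty vector arrays lay on either side of the MED1 pair, so no direction was apparent. The second, 206553_at, read 18.3 and 6.97 with MED1 and 17.8 and 16.3 with the empty vector. Here the MED1 arrays were the ones spread around the controls. The log2 differences were 0.39 ± 0.44 and -0.24 ± 0.27 (SE of a fit without the filter). Both probe sets lay under 32.2 on every array, and no detection calls were used, so the level of OAS2 RNA was not resolved by these signals.

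OASL, the member without synthetase activity, was split between its probe sets. The first, 205660_at, read 167 and 150.5 with MED1 and 15.3 and 16.7 with the empty vector. The groups were as clearly separated as those of OAS1, with means of 159 ± 11.5 and 15.96 ± 0.985 (SD, n = 2). The ratio was 9.94, again over a control mean under the filter level, and the log2 difference was 2.45 ± 0.22 (SE). The second, 210797_s_at, read 92.4 and 42.5 with MED1 and 30.7 and 49.0 with the empty vector. MED1 replicate 1 alone was high, and MED1 replicate 2 lay between the controls. The means were 67.5 ± 35.3 and 39.9 ± 13.0, and the log2 difference was 0.53 ± 0.33 (SE). That value was 0.09 without MED1 replicate 1 and 0.98 without MED1 replicate 2. It was 0.29 without empty vector replicate 1, and 0.77 without empty vector replicate 2.

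The OASL probe sets differed from each other by 1.92 in log2 difference, by 2.55 and 1.16 with pseudocounts of 1 and 64, and by 1.54 to 2.29 with 1 array left out. With the pseudocount of 16, over 5624 pairs of tested probe sets of a shared gene, from 2628 genes the median was 0.16, and 2 pairs, or 0.0356%, were at least as far apart, OASL's own among them. The other was IDH3G, a subunit of a citric acid cycle enzyme, named after its values were seen. An ending of _s_at marks probe sets that match several transcripts, as the second OASL and the second OAS1 probe set do. The 3' to 5' signal ratio, a measure of RNA integrity and labelling, was 8.14 to 9.45 for the actin controls and 1.16 to 1.27 for the GAPDH controls over the 4 arrays. Its part in the split of OASL was not tested.

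**Figure D2:**
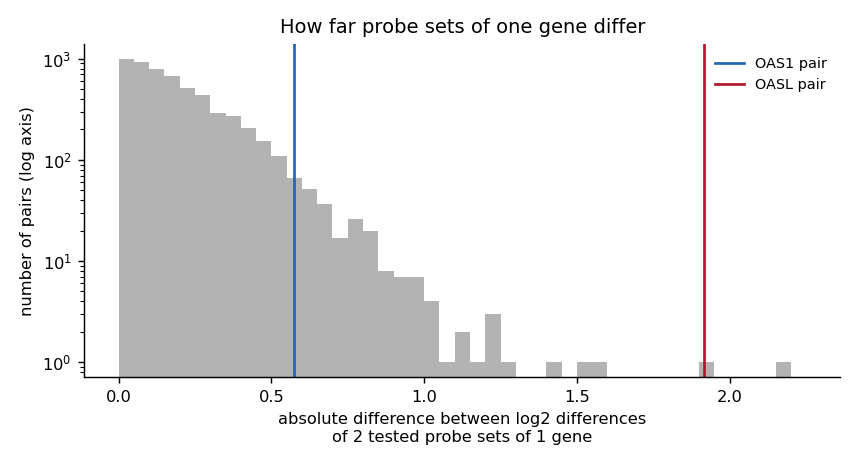
Number of pairs (log axis) of tested probe sets of a shared gene against the absolute difference between their log2 differences, with lines at the OAS1 and OASL pairs. With the pseudocount of 16 shown, the OASL pair, 1.92 apart, lies beyond all but 1 of the other pairs, and the OAS1 pair lies at 0.58, a gap that was 0.03 with a pseudocount of 1. As the contrast helped to choose both genes, nothing is read from the place of their pairs.

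**Figure D3:**
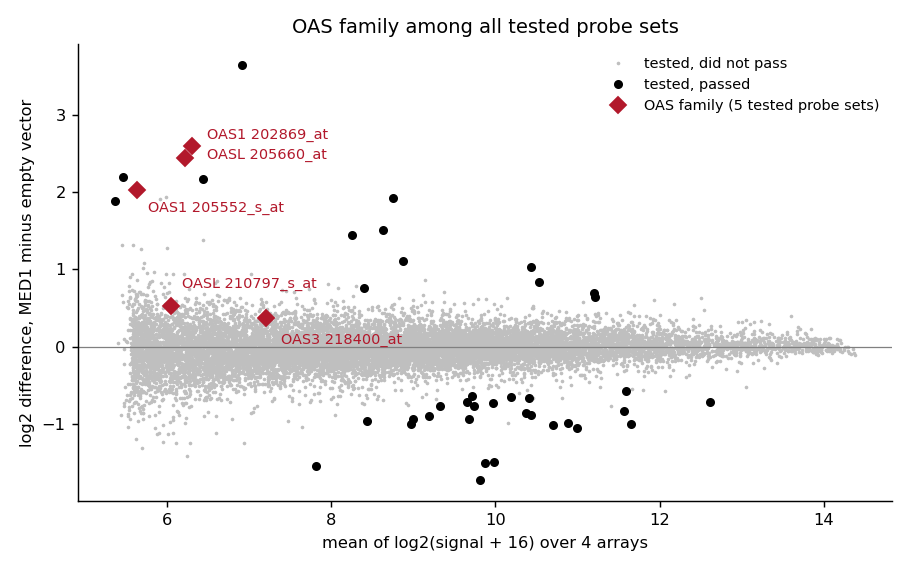
Log2 difference, MED1 minus empty vector, of each of the 13329 tested probe sets against its mean log2(signal + 16); black points passed (limma, Benjamini-Hochberg), red diamonds are the 5 tested OAS family probe sets. The OAS1 pair and OASL 205660_at lie at low mean signal with differences of 2.03 to 2.60, and OAS3 and the second OASL probe set lie within the grey cloud.

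The genes of OAS1, OAS3 and OAS2 stand side by side on chromosome 12, with OASL further along it. RefSeq's GRCh38.p14 promoter table holds OAS1 and OAS3 but not OAS2 or OASL, so the upstream sequences of OAS1 and OAS3 are shown. Factors of the IRF family, among them IRF9, the partner of interferon-activated STAT proteins, bind repeats of GAAA. Both strands of the 250 bases before the start were therefore searched for GAAANNGAAA and for GAAANGAAA, the latter spacing being added after the OAS1 sequence had been seen. The 2 motifs can overlap. Capitals mark the matches, and all lie on the strand of the gene, written 5′ to 3′. The OAS1 stretch is chr12:112906712-112906961 and the OAS3 stretch chr12:112938224-112938473, both on the plus strand.
OAS1: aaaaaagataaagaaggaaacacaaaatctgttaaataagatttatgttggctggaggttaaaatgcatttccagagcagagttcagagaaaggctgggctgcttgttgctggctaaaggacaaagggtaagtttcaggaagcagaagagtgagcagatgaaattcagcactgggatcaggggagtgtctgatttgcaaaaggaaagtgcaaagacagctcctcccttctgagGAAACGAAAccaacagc
OAS3: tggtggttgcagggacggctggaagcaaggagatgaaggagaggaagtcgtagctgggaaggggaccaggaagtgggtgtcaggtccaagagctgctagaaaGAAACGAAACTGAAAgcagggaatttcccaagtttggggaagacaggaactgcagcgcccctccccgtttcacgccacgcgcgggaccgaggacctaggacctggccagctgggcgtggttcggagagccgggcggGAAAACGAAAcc
OAS1 had 1 match, GAAACGAAA, from 17 to 9 bases before the start. OAS3 had 3 matches: GAAAACGAAA from 12 to 3 bases before the start, and the overlapping GAAACGAAA and GAAACTGAAA further upstream, from 148 and 143 bases before it. Of 35116 upstream stretches of that length in the table, 3.02% held GAAANNGAAA and 2.69% held GAAANGAAA. Either motif was held by 5.48% of the stretches. Counted by gene, it was held by 4 of the 42 genes of the pathway, RNA-binding, signalling and nucleotidyltransferase lists that have a stretch. Of 16 genomic neighbours it was held by 2, TPCN1 (log2 difference -0.07) and P2RX7 (not tested). Some genes have several stretches and count as holders if any matches, so the counts by gene cannot be set against the 5.48%. A match describes letters and not binding.

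Around the synthetases, 4 lists of genes were compared in the same fit, with 55 genes, of which 47 were analysed here. Of their 58 tested probe sets, 1 rose and 0 fell, where 0.120% and 0.188% of all tested probe sets rose or fell (limma, Benjamini-Hochberg). The median log2 difference over the 58 was 0.01, against -0.02 over all 13329.

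The list closest to the synthetases was represented by 3 genes that restrain the pathway, and 0 of their 4 tested probe sets passed. ABCE1, a ribosome-recycling ATPase also described as an inhibitor of the pathway, read 1526 and 1259 with MED1 and 1137 and 1195 with the empty vector by 201873_s_at. By 201872_s_at it read 1313 and 1225 against 1091 and 1102. On both probe sets the groups were separated by a small step. The log2 differences were 0.25 ± 0.11 and 0.21 ± 0.09 (SE), with adjusted p of 0.557 and 0.559 (limma, Benjamini-Hochberg).

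PDE12, a phosphodiesterase that degrades the 2',5'-linked chains, read 51.9 and 31.9 with MED1 and 25.9 and 45.7 with the empty vector. Its groups overlapped (log2 difference 0.16 ± 0.31 SE, limma adjusted p = 0.912). AKAP7, a kinase anchor with a domain that also degrades those chains, read 413 and 348 against 384 and 374 by the probe set that was tested, again with overlap (-0.000683 ± 0.13, limma adjusted p = 0.999). Its 2 other probe sets lay under the filter level in mean, and there both MED1 arrays were below both controls, at 10.8 and 8.02 against 14.8 and 18.2, and at 26.3 and 28.4 against 34.2 and 35.8.

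Among other proteins that bind or sense double-stranded RNA, 1 of 23 tested probe sets, from 14 genes, rose and 0 fell, with a median log2 difference of 0.07 and 16 values positive. Both MED1 arrays exceeded both controls on 9 of the 23 and were lower on 2 (17.2% and 22.6% over all tested). At an unadjusted p of 0.05 in limma, 4 of the 23 passed, all higher with MED1, where 1225 of all 13329 passed. They were single probe sets of RIGI, ZC3HAV1, EIF2AK2 and STAU1. STAU1 gave 0.32 by that probe set, 211505_s_at, and 0.13, 0.11 and -0.03 by its other, brighter probe sets. All of these but the last are among the 9 above. Of the 4, only RIGI, the sensor RIG-I with which OASL acts, passed after adjustment. It read 61.0 and 66.7 with MED1 and 7.49 and 3.70 with the empty vector, so the groups lay far apart. Its log2 difference was 1.89 ± 0.29 (SE; limma, Benjamini-Hochberg adjusted p = 0.0399). Like OAS1 and OASL it passed the filter only through the MED1 arrays, and it lost the call without empty vector replicate 2 (adjusted p = 0.108), with a pseudocount of 1 (0.0763) and with no filter (0.242), and was not tested with the filter at the 60th percentile. Among the pathway lists, RIGI held GAAANGAAA upstream. IFIH1, which did not pass, and SOCS1 and IFNA1, which were not tested, held GAAANNGAAA. ZC3HAV1, given outside the rule for named genes, read 319 and 332 with MED1 and 203 and 246 with the empty vector by 220104_at. That was a log2 difference of 0.51 ± 0.14 (SE, limma adjusted p = 0.299), and its 213051_at gave 0.003 ± 0.10 (limma adjusted p = 0.995).

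Other genes of this list are given outside the rule for named genes, since they are well known for sensing or editing double-stranded RNA. EIF2AK2, the kinase PKR that stops translation, gave 0.33 ± 0.11 (adjusted p = 0.443) by 204211_x_at and 0.07 ± 0.12 (adjusted p = 0.896) by 213294_at (limma, Benjamini-Hochberg). IFIH1, the sensor MDA5, gave 0.22 ± 0.18 (limma adjusted p = 0.755) by 219209_at. Its 216020_at, under the filter level and not tested, read 16.1 and 12.8 with MED1 against 16.3 and 19.7. ADAR, which edits double-stranded RNA and keeps it from being sensed, gave 0.07 ± 0.09 (limma adjusted p = 0.852). TLR3, the endosomal sensor, read 26.1 and 19.7 with MED1 against 40.3 and 43.9, lower on both arrays (-0.58 ± 0.27 SE, limma adjusted p = 0.578). Its MED1 mean of 22.9 lay under the filter level, so it was tested only through the controls. None of these 4 genes passed.

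The interferon signalling list, which holds receptors, kinases, transcription factors and feedback regulators upstream of the OAS genes, had 14 tested probe sets, of which 0 passed, with a median log2 difference of -0.03; at an unadjusted p of 0.05, 1 passed in limma. That one was IRF9, the DNA-binding partner of the interferon-activated STAT proteins. It read 88.2 and 102 with MED1 and 42.3 and 66.4 with the empty vector, with separated groups (0.68 ± 0.24, limma adjusted p = 0.442). The interferon gamma receptor chains IFNGR2 and IFNGR1 gave -0.19 ± 0.11 and -0.17 ± 0.10 (limma adjusted p = 0.634 and 0.636), and a second IFNGR1 probe set gave 0.02 ± 0.12. Of the interferon genes, given outside the rule for named genes and below the filter, IFNB1 lay at 8.53 and 4.43 with MED1 and 1.32 and 3.77 with the empty vector, and IFNA1 lay lower with MED1, at 4.34 and 1.76 against 13.0 and 11.8. At these signals neither level was resolved.

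Relatives of the OAS enzymes by fold, the polymerase beta class of nucleotidyltransferases, had 17 tested probe sets, of which 0 passed; 1 had an unadjusted p under 0.05 in limma. Their median log2 difference was -0.01. TUT1, which adds uridines to a spliceosomal RNA, gave -0.49 ± 0.20 (limma adjusted p = 0.486). TUT7, a terminal uridylyltransferase, gave 0.14 ± 0.11 (limma adjusted p = 0.733), and POLB, the repair polymerase of the class, -0.15 ± 0.11 (limma adjusted p = 0.734).

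**Figure D4:**
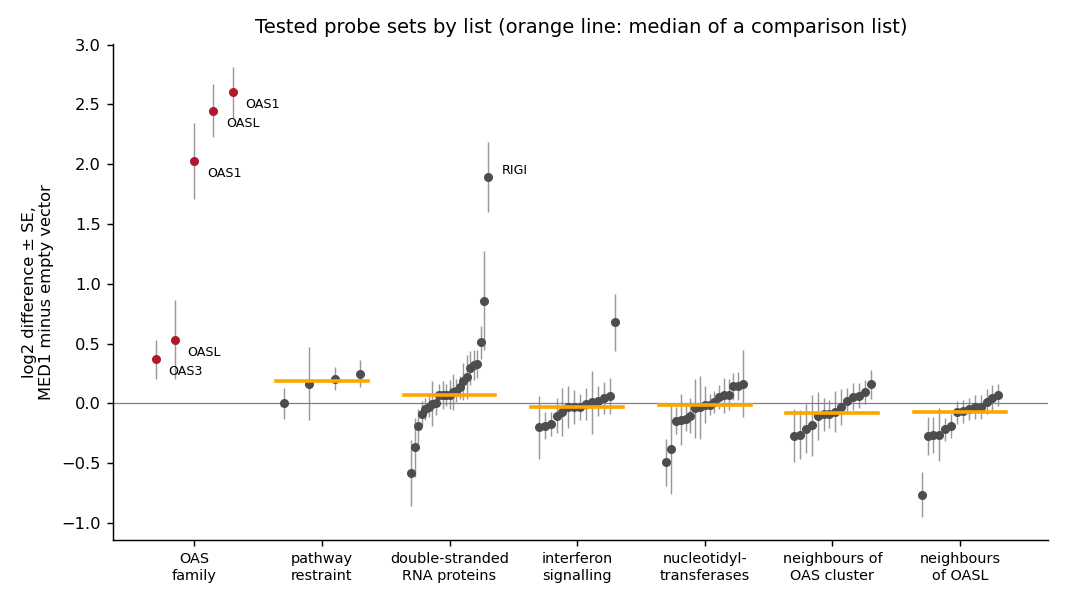
Log2 difference, MED1 minus empty vector, with its SE (bars) for every tested probe set of the OAS family (red), of the 4 pathway lists and of the genomic neighbours (grey), with the median of each comparison list in orange. RIGI at 1.89 stands apart from the other pathway genes, and list medians lie between -0.08 and 0.19.

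The genes that flank the family on chromosome 12 were also compared, taking the 5 nearest measured protein-coding genes on each side of the OAS1-OAS3-OAS2 cluster and of OASL by gene order in GRCh38.p14. Of 28 tested probe sets from 17 of these 20 genes, 0 passed in limma after Benjamini-Hochberg adjustment and 1 had an unadjusted p under 0.05. Their median log2 difference was -0.07. The MED1 pair exceeded the control pair on 2 of the 28 and was lower on 11, without overlap, where those shares over all tested probe sets were 17.2% and 22.6%. The 1 of low p was a probe set of ANAPC5, a subunit of the anaphase-promoting complex, 208721_s_at. It read 374 and 346 with MED1 and 784 and 492 with the empty vector, and the spread of the controls was as wide as much of the step (-0.76 ± 0.19 SE, limma adjusted p = 0.253). It passed without MED1 replicate 1 (limma adjusted p = 0.00316), without MED1 replicate 2 (0.0152), without empty vector replicate 2 (0.0188) and with the replicate number as a block (0.0126), but not without empty vector replicate 1, the higher control, where the difference was -0.43 (0.259) against -1.09 without the other control. Its 3 other tested probe sets gave -0.19, 0.07 and -0.03. The ubiquitin ligase RNF34 gave -0.22 ± 0.10 (limma adjusted p = 0.553) and the ATP-gated channel P2RX4 -0.27 ± 0.16 (limma adjusted p = 0.621), each lower in both MED1 arrays.

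For each member, the single-gene probe sets of most similar pattern were found by Euclidean distance over the 4 arrays, on log2(signal + 16) centred on each row's mean. With 4 arrays such likeness is a description. OAS1 and OASL 205660_at had the same 3 nearest: IDH3G, the interferon-induced IFI27 and the interferon-induced IFI6. The distances were 0.47, 0.50 and 0.72 from OAS1 and 0.30, 0.43 and 0.58 from OASL. IDH3G 214333_x_at read 181 and 157 with MED1 and 26.2 and 24.0 with the empty vector, while a brighter IDH3G probe set, 202471_s_at, read 681 and 764 against 717 and 744. The ending _x_at marks probe sets that can match other transcripts.

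IFI27 read 67.5 and 90.7 against 4.62 and 4.52, and IFI6 read 774 and 870 against 215 and 196. The upstream stretches of IFI27 and IFI6 held GAAANNGAAA, so either motif was held by 2 of the 8 nearest genes that have a stretch. IDH3G, the nearest to both OAS1 and OASL, was among those that held neither. These genes were picked by their pattern over the same arrays that helped to choose OAS1 and OASL. Nothing is therefore read from the matches, and a shared control was not tested. Nearest to OAS3 were POLR2B, a core subunit of RNA polymerase II (distance 0.01), the cadherin CELSR3 (0.03) and the corepressor TLE4 (0.03, below the filter). POLR2B read 4307 and 4442 with MED1 and 3441 and 3387 with the empty vector (0.36 ± 0.09 SE, limma adjusted p = 0.263). Nearest to OAS2 204972_at were ZNF22, RABEP2 and LRP12 (0.09, 0.10 and 0.15), which share with it a low value in empty vector replicate 2.

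In all, 41 of 13329 probe sets, or 0.308%, passed (limma, Benjamini-Hochberg), 16 higher and 25 lower with MED1. This count depended on which arrays were kept. Of the 16 higher, 7 had an empty vector mean under the filter level. The vector's own gene, MED1, read 559 and 807 against 292 and 315 by 203496_s_at (1.11 ± 0.16 SE, adjusted p = 0.0344) and 1172 and 1074 against 1097 and 1011 by 203497_at (0.09 ± 0.10, adjusted p = 0.830). Median signals were 77.4 to 83.2. The cells matched their label: all 11 probe sets of 7 luminal prostate genes were tested and 0 passed, with a highest signal of 8663. Their median log2 difference was -0.13, with 8 of the 11 negative. On 6 of them both MED1 arrays were lower without overlap (22.6% over all tested), and 3, of TMPRSS2 and KLK2 and all lower, had an unadjusted p under 0.05 in limma. Of 10 leukocyte probe sets 0 were tested, and 8 of them lay under the filter level on every array; the highest signal was 41.9. The summed leukocyte signal was 93.5 to 104 with MED1 and 71.0 to 139 with the empty vector. Of 21 fibroblast and endothelial probe sets 2 were tested and 0 passed, with summed signals of 359 to 562 and 407 to 545.

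The size of the OAS1 and OASL differences depended on the number added before taking logs, since the empty vector signals were near that number. With 1 in place of 16, OAS1 202869_at gave 3.40, OAS1 205552_s_at 3.36 and OASL 205660_at 3.23, and with 64 they gave 1.60, 1.02 and 1.48. OAS3 ranged from 0.28 to 0.42 over these and the scaling alternatives. Leaving out 1 array moved OAS1 202869_at to between 2.55 and 2.66 and OASL 205660_at to between 2.38 and 2.52. For OAS1 205552_s_at the range was wider, 1.66 to 2.40, as its controls differed from each other.

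**Figure D5:**
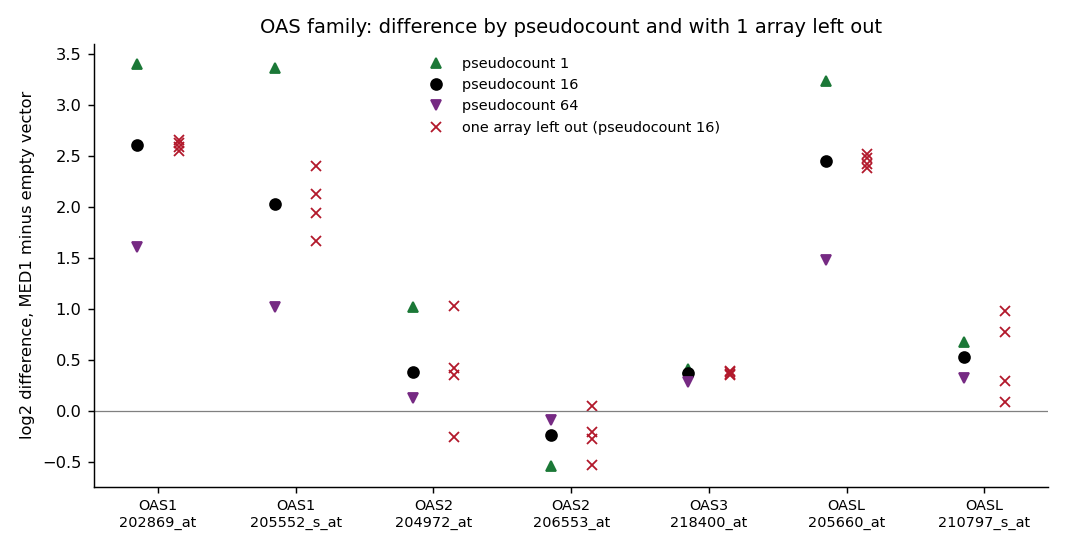
Log2 difference of each OAS family probe set with 1, 16 and 64 added before the log (triangles and circle) and with 1 array left out (crosses). OAS1 and OASL 205660_at stay above 1 throughout, OAS3 stays between 0.28 and 0.41, and the OAS2 probe sets cross 0 when an array is left out.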

How the data were processed

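The 4 LNCaP arrays (2 with MED1, 2 with empty vector) were grouped by their titles; the controls' free-text description, which names the other vector, was set aside. The deposited values are signal intensities made by the authors with MAS5, per the submitters' processing notes, with version and other steps not given in the sources used here. Each array's mean, trimmed by 2% at either end, was 499.9, and none was rescaled. After 62 controls, 22215 probe sets remained: 19064 naming 1 gene, 1043 several and 2108 none. Entrez identifiers of 19052 matched RefSeq (GRCh38.p14), used for names, gene order and promoters.

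Values were taken as log2(signal + 16), filtered at the 40th percentile of the mean signal and compared with limma 3.58.1 in R 4.3.3 (eBayes with an intensity trend, Benjamini-Hochberg, two-sided), in a procedure tested on simulated data. Each probe set's 2 residual degrees of freedom were joined by 7.12 of the prior. An exact permutation test of 2 against 2 cannot go below 0.333. Nothing says that duplicates were separate cultures, so p-values reflect only how these samples vary, possibly for technical reasons, and the number of arrays limits precision. Members, lists and rules were chosen with earlier results of these data known. Named genes were the members, the genes that restrain the pathway (1 planned item is not reported here), passing genes of each list or else the 3 of lowest p, and the 3 nearest patterns. Alternatives covered pseudocount, scaling, filter, trend, robust fit, replicate block and each array left out.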

Additional observations from a re-analysis of the deposited data

How the results depend on the processing

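The number of OAS family probe sets whose MED1 arrays both exceeded both controls was 4 under all 9 settings that kept every array, and 4 to 6 with 1 array left out, where fewer arrays make separation easier and a lone array is assumed to vary as the other group does. The signs of OAS1, OAS3 and OASL kept to the main direction under all 13 settings. OAS2 turned without a call when 1 array was left out: 204972_at spanned -0.26 (lacking empty vector replicate 2) to 1.03, and 206553_at -0.53 to 0.0515 (lacking MED1 replicate 2), with -0.54 at a pseudocount of 1. The count of 41 passing probe sets was 0 with no filter (limma, 0 of 22215), 7 without the variance trend and 25 to 215 with 1 array left out. For the pathway lists the count of 1 was 0 with no filter, with the filter at the 60th percentile (where RIGI was not tested) and with a pseudocount of 1, and 0 to 2 with 1 array left out, the second being DHX9 212107_s_at (-0.81 without MED1 replicate 2, adjusted p = 0.00863, but 0.0775 when MED1 replicate 1 was left out). PDE12 spanned -0.11 to 0.44 with 1 array left out and turned to -0.09 when MED1 replicate 1, and to -0.11 when empty vector replicate 1, was left out. For the neighbours the count of 0 was 0 to 1 with 1 array left out, the 1 being ANAPC5 208721_s_at. With the replicate number as a block, 230 probe sets passed, and 1 among the neighbours, again ANAPC5 208721_s_at (adjusted p = 0.0126); RIGI passed as before. Same-numbered deviations correlated at 0.12, and 2 pairs are too few to treat the numbers as pairing. Beyond fewer arrays or probe sets, the cause was not tested. Signals near or under the filter level have no known background here, which limits OAS2 and the control levels of OAS1 and OASL.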
